A study of Rattus norvegicus with 42 samples.

Results

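The comparison described here exchanged 20 points of brain for 20 points of lung while liver was held at 70%. It rests on 6 of the 42 arrays of the series: 3 arrays of a mixture labelled 70% liver, 5% brain and 25% lung (70/5/25), and 3 arrays of a mixture labelled 70% liver, 25% brain and 5% lung (70/25/5). The arrays were chosen by these labels alone, and a mixture is named by its percentage of liver, then brain, then lung. The 9 arrays of pure liver, pure brain and pure lung (3 each) served to classify genes by home tissue and to predict the exchange. The series measured Affymetrix rat arrays on biotin-labelled RNA (cRNA) of 3 rat tissues, alone or mixed at the cRNA stage, to test whether composition can be worked out statistically. All groups came from untreated material of animals labelled 9 to 12 weeks old, and the design text names a single animal. No strain is given in the sources used here. The 3 arrays of a group are technical replicates, so p-values measure the spread between arrays and nothing about animals.

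Brain RNA carries transcripts of neurons, of the myelin-forming oligodendrocytes and of astrocytes. Lung RNA carries those of surfactant-making alveolar type 2 cells, gas-exchanging type 1 cells, airway epithelium, abundant blood vessels, connective tissue and resident immune cells. Liver RNA is dominated by hepatocytes, which make plasma proteins and metabolic enzymes. In a mixture that is read in proportion, a gene of lung alone should follow the lung share, and a gene that liver also expresses should move less. In bulk samples such as these, fewer cells of a type and less RNA per cell cannot be told apart.

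The labelled tissues were checked on the pure arrays, where levels are given on the log2 scale of the deposited values. The surfactant gene Sftpb averaged 12.66 in lung, 3.53 in brain and 3.72 in liver. The cerebellar receptor gene Gabra6 averaged 2.87 in lung, 10.62 in brain and 2.83 in liver. The urea cycle gene Cps1 averaged 3.36 in lung, 6.06 in brain and 12.51 in liver. These markers were high where the labels put them, but other genes went against a single animal as the source. Xist, the RNA that coats an inactive X chromosome in females, averaged 2.88 in lung, 11.25 in brain and 11.09 in liver, and the Y-linked gene Eif2s3y averaged 8.97 in lung, 2.48 in brain and 3.13 in liver. Cyp2c11 and Cyp3a2, cytochrome P450 genes that are high in livers of adult male rats, averaged 4.20 and 3.43 in pure liver, where bacterial dap, lys, phe and thr control probe sets averaged between 2.48 and 3.83 in the mixtures of the pair. The reason was not tested. Differences of tissue and of animal cannot be told apart where lung and brain RNA came from different animals. The plasma protein gene Alb averaged 5.07 in lung, 12.21 in brain and 14.31 in liver, and 17 of 45 hepatocyte genes listed were at least 2-fold higher in pure brain than in pure lung, against 5 at least 2-fold higher in lung. These genes were singled out after their values were seen.

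The arrays of the pair were close to each other within groups. Array medians lay between 5.67 and 5.68 in 70/5/25, against 5.73 and 5.74 in 70/25/5, and the median SD between arrays was 0.09 and 0.08. No 2 arrays of either group held the same values, with at most 16 probe sets exactly equal, to all deposited digits, in a pair of arrays. The hybridisation control bioB averaged 8.08 in 70/5/25, against 8.06 in 70/25/5, and cre averaged 13.13, against 13.19. The number of arrays limits the precision.

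The exchange moved a large part of the transcriptome, brain genes down and lung genes up. In a limma fit over all 42 arrays, 14522 of 31042 probe sets differed between 70/5/25 and 70/25/5 at a Benjamini-Hochberg adjusted p under 0.05 (46.8%). Of these, 7874 were higher in 70/5/25 (25.4% of those tested) and 6648 were lower (21.4%), so 54.2% of the calls were higher. With each array centred on its median 64.4% of the calls were higher, and with arrays shifted by their hybridisation controls 41.2% were. At 2-fold or more the balance was the other way, with 1182 higher (3.81%) and 1910 lower (6.15%). Taking 1 probe set per gene, with p-values adjusted over all probe sets, 4465 of 14217 genes were higher (31.4%) and 3264 were lower (23%). In 17214 probe sets (55.5%) the arrays of the 2 mixtures did not overlap. The median log2 difference, 70/5/25 minus 70/25/5, was 0.05 over all probe sets, and 0.11 after median centring. Differences ran from -2.84 to 2.65. The labelled shares of lung and of brain each differ 5-fold, which is 2.32 on the log2 scale, and 21 probe sets lay above that ratio and 44 lay below its negative.

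Among the 10 genes with the largest rises, Tbx5, a T-box transcription factor of heart, limb and lung development, had levels of 6.36, 6.06 and 6.26 on the 70/5/25 arrays, against 3.56, 3.46 and 3.72 on the 70/25/5 arrays. All 3 arrays of 70/5/25 lay more than 2 log2 units above those of 70/25/5, a difference of 2.65 ± 0.12 (SE, n = 3 each) or 6.26-fold (adjusted p = 7.04e-20). Its 70/25/5 levels lie close to those of the bacterial controls, so the fold is approximate. Ccl11, which encodes the eosinophil attractant eotaxin, had between 7.98 and 8.06 in 70/5/25, against 5.50, 5.47 and 5.51 in 70/25/5, a 5.73-fold rise (adjusted p = 4.02e-20). Tbx4, a T-box gene of lung mesenchyme, had 7.45, 7.24 and 7.51 in 70/5/25, against 4.91, 4.76 and 5.22 in 70/25/5. Its groups did not overlap, with a log2 difference of 2.43. Myl7, the atrial myosin light chain, had 7.34, 7.21 and 7.28 in 70/5/25, against 4.74, 4.73 and 4.93 in 70/25/5. Ankrd1, a stress-responsive cardiac ankyrin repeat gene, rose by 2.45, the amino acid transporter gene Slc6a14 by 2.47, and the simple-epithelium keratin gene Krt7 by 2.41. Gimap4, a GTPase gene of lymphocytes, rose by 2.37, Fam111a by 2.44 and Prr15l by 2.49. In each of these 10 genes every 70/5/25 array was above every 70/25/5 array. Their choice by size of difference makes such separation likely, and 55.5% of all probe sets had no overlap.

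Among the 10 genes with the largest falls, Tmem229a had 4.12, 4.30 and 4.13 on the 70/5/25 arrays, against 6.69, 6.70 and 6.82 on the 70/25/5 arrays, a log2 difference of -2.55 ± 0.10 (SE, n = 3 each; adjusted p = 1.75e-21). Both groups were tight and far apart. Gabra2, a subunit of the inhibitory GABA-A receptor, had 4.17, 4.40 and 4.36 in 70/5/25, against 6.53, 6.84 and 6.75 in 70/25/5, a log2 difference of -2.40 (adjusted p = 2.54e-22). Pax6, a transcription factor of eye, forebrain and cerebellar granule cells, had 4.39, 4.02 and 3.99 in 70/5/25, against 6.51, 6.54 and 6.51 in 70/25/5. The 3 arrays of 70/25/5 were nearly equal in Pax6, and the fall was 5.23-fold. Kcnc1, a fast voltage-gated potassium channel gene, had 5.95, 6.12 and 5.96 in 70/5/25, against 8.41, 8.34 and 8.34 in 70/25/5, a log2 difference of -2.35. Slitrk1, a synaptic adhesion gene, differed by -2.39, Nxph1, which encodes a neurexin ligand, by -2.39, Plcxd3 by -2.42 and Ildr2 by -2.51. Nol4 and Pnma8b differed by -2.33 each. The groups did not overlap in any of these 10 genes, and all fell about 5-fold or more. The choice by size of difference makes this separation likely too, beside 55.5% of all probe sets without overlap.

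**Figure D1:**
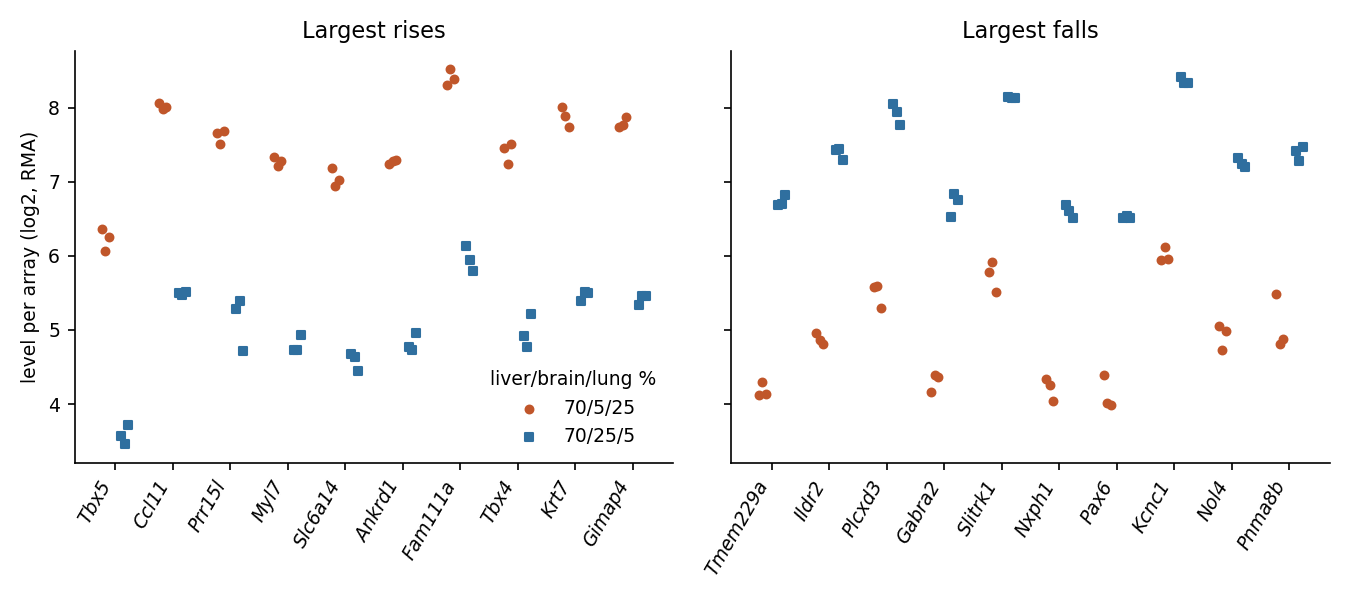
Level on each array (log2, RMA) of the 10 genes with the largest rises (left) and the 10 with the largest falls (right), with 70/5/25 as circles and 70/25/5 as squares to the right of them. The groups do not overlap in any of the 20 genes, which were chosen for large differences (55.5% of all probe sets do not overlap). Tbx5 shows the largest difference of group means, at 2.65.

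Gene lists for brain cell types fell nearly as a whole, apart from those for microglia and choroid plexus. The members of all lists were chosen with earlier results of these data known, so their counts are descriptions. Across the brain lists 81 of 94 measured genes were lower in 70/5/25 and 7 were higher, beside 23% and 31.4% of all genes. 73 of the 94 fell at least 2-fold. All 20 neuron and synapse genes fell, with a median difference of -1.90, beside 0.07 over all genes. Syt1, the calcium sensor of synaptic vesicle release, had 6.04, 6.11 and 5.90 in 70/5/25, against 8.29, 8.25 and 8.10 in 70/25/5, a 4.58-fold fall (adjusted p = 1.87e-15). The heavy neurofilament gene Nefh fell 4.35-fold and the synaptic vesicle gene Syn2 4.14-fold, both without overlap between the groups. All 12 genes of glutamate and GABA signalling fell as well, among them Gabrb2 at -2.11 and the glutamate receptor subunits Grin2a at -2.10 and Gria1 at -2.09.

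Most genes of brain regions fell. Of 9 cerebellar genes 8 fell, with a median of -2.00. Neurod1, a transcription factor of granule neurons, had 7.50, 7.38 and 7.36 in 70/5/25, against 9.63, 9.58 and 9.65 in 70/25/5, a difference of -2.21. Cbln1, the synapse organiser that granule cells secrete, differed by -2.20 and Gabra6 by -2.13. Zic1 did not pass (-0.29, adjusted p = 0.0765). Of 8 forebrain and striatal genes 7 fell, with a median of -1.63. The dopamine receptor gene Drd1 had 4.82, 4.31 and 4.54 in 70/5/25, against 6.98, 6.73 and 6.85 in 70/25/5, a 4.91-fold fall. Camk2a, the forebrain kinase of synaptic plasticity, differed by -1.99 and the striatal phosphodiesterase gene Pde10a by -1.88. Adora2a did not pass (-0.06, adjusted p = 0.707). Its pure levels were 6.14 in lung, 6.60 in brain and 5.84 in liver. All 11 neuropeptide and granin genes fell, led by the granin gene Scg2 at -2.16, Vip at -2.04 and Scg5 at -1.94.

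Glial genes divided. Of 13 myelin and oligodendrocyte genes 12 fell, with a median of -1.99. Ermn, which encodes the myelin protein ermin, differed by -2.23, Ugt8, the enzyme that makes the myelin lipid galactosylceramide, by -2.15 and Opalin by -2.12. Olig2 did not pass (-0.16, adjusted p = 0.282), and its probe set read 3.36 in pure lung, 4.03 in pure brain and 3.98 in pure liver. Of 9 astrocyte genes 8 fell and 1 rose. The astrocyte connexin gene Gjb6 had 5.33, 5.45 and 5.33 in 70/5/25, against 7.65, 7.58 and 7.59 in 70/25/5, a 4.71-fold fall (adjusted p = 1.19e-24). Gfap, the astrocyte intermediate filament, fell 4.04-fold, and Aldoc, the brain form of aldolase, 3.69-fold. Fgfr3, a fibroblast growth factor receptor, rose instead, by 0.56. Its pure level was 10.35 in lung, 8.83 in brain and 8.11 in liver.

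Microglia are the macrophages of the brain and share many transcripts with macrophages elsewhere. Of 7 microglial genes 4 rose in 70/5/25 and only P2ry12 fell, although 70/5/25 holds less brain. Over all genes 31.4% rose and 23% fell. Csf1r, the receptor for the macrophage growth factor, had 8.16, 8.36 and 8.32 in 70/5/25, against 7.50, 7.68 and 7.52 in 70/25/5. The groups were separate, with a difference of 0.71 (adjusted p = 1.5e-11). Tmem119 rose by 0.90 and Aif1, which encodes the macrophage protein IBA1, by 0.57. All 3 were higher in pure lung than in pure brain, with Tmem119 at 7.74 in lung, against 6.33 in brain. Trem2, a lipid-sensing receptor of macrophages, rose by 0.29 (adjusted p = 0.013), a call that was lost without replicate 2 of 70/5/25 (adjusted p = 0.0633) or replicate 2 of 70/25/5 (adjusted p = 0.0522). P2ry12, a purine receptor typical of microglia, had 5.35, 5.51 and 5.38 in 70/5/25, against 6.30, 6.28 and 6.31 in 70/25/5, a difference of -0.89. It was the only one of the 7 listed whose pure brain level was over 2-fold above pure lung, at 5.95 in lung and 7.38 in brain. Cx3cr1 (-0.07) and Itgam (0.11) did not pass.

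The 5 measured choroid plexus genes, which mark the tissue that makes cerebrospinal fluid, went different ways. Otx2, a transcription factor of choroid plexus and forebrain, had 3.50, 2.72 and 3.37 in 70/5/25, against 4.39, 4.76 and 4.58 in 70/25/5, a difference of -1.38. The 70/5/25 levels of Otx2 lie within the range of the bacterial controls, so its fall is approximate. The folate receptor gene Folr1 differed by -0.43. The potassium channel subunit gene Kcne2 rose by 0.95, and was higher in pure lung (7.84) than in pure brain (5.94). Kl rose by 0.28 with levels of 2.85 to 3.30 on all 6 arrays, near the bacterial controls, and its difference was 0 after background subtraction. Ttr, which encodes the thyroid hormone carrier transthyretin, did not pass (-0.04, adjusted p = 0.569). Ttr averaged 4.51 in pure lung, 13.09 in pure brain and 13.33 in pure liver. Its predicted difference was -0.30, and the departure of 0.26 (adjusted p = 0.000471) was under 1.5-fold.

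Lung lists rose nearly as a whole. Across them 89 of 94 measured genes were higher in 70/5/25 and 1 was lower, beside 31.4% and 23% of all genes, and 71 rose at least 2-fold. Of 10 alveolar type 2 genes 9 rose, with a median of 1.96. Napsa, the aspartic protease that processes surfactant protein, had 9.49, 9.52 and 9.47 in 70/5/25, against 7.23, 7.29 and 7.28 in 70/25/5, a 4.67-fold rise (adjusted p = 4.3e-21). The surfactant protein genes Sftpb and Sftpd rose 4.44-fold and 4.34-fold. Sftpb had 11.12, 11.06 and 11.14 in 70/5/25, against 8.93, 8.94 and 9.00 in 70/25/5. Etv5 did not pass (-0.14, adjusted p = 0.269), and its pure levels were 6.96 in lung and 6.92 in brain.

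Type 1 and airway genes all rose, 7 of 7 and 9 of 9. The water channel gene Aqp5 rose by 2.17 and had 8.77, 8.81 and 8.84 in 70/5/25, against 6.58, 6.66 and 6.68 in 70/25/5. Emp2, a membrane protein gene of type 1 cells, rose by 2.10, and Ager, the receptor for advanced glycation end products, by 2.09. Among airway genes Sec14l3, a lipid-binding protein gene of airway epithelium, had 10.25, 10.27 and 10.23 in 70/5/25, against 7.93, 7.90 and 7.91 in 70/25/5. The arrays of each mixture were nearly equal, and the rise of 2.33 was 5.05-fold (adjusted p = 9.23e-24). Bpifa1, an airway defence protein gene, rose by 2.17 and the secretoglobin gene Scgb3a1 by 1.99.

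Vessel, matrix and muscle genes rose with the epithelium. All 12 endothelial genes rose at least 2-fold, with a median of 1.46. Calcrl, the receptor for adrenomedullin, had 9.13, 9.31 and 9.15 in 70/5/25, against 7.39, 7.43 and 7.18 in 70/25/5, a 3.63-fold rise. The adhesion gene Pecam1 rose by 1.78 and Vwf, the von Willebrand clotting factor, by 1.67. All 13 matrix genes rose, led by the elastic fibre gene Mfap4 at 2.15, Postn at 2.09 and the collagen gene Col1a1 at 1.89. All 8 smooth muscle genes rose, among them Tpm2 at 1.80, Tagln at 1.75 and the smooth muscle myosin gene Myh11 at 1.74. Both endothelium and smooth muscle have other sources in brain and liver, and Pecam1 averaged 9.31 in lung, 5.06 in brain and 6.44 in liver.

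Heart muscle genes were listed with lung because pulmonary veins of rodents carry cardiac muscle. Of 9 measured genes 6 rose and 1 fell, beside 31.4% and 23% of all genes. Myh6, the alpha myosin heavy chain, had 8.04, 7.92 and 7.74 in 70/5/25, against 5.60, 5.64 and 5.48 in 70/25/5, a 4.99-fold rise (adjusted p = 7.86e-15), beside Myl7 above. The atrial light chain gene Myl4 rose by 1.45. Ryr2, the calcium release channel of heart and of neurons, fell, with 6.35, 6.46 and 6.30 in 70/5/25, against 8.22, 8.26 and 8.19 in 70/25/5. Its pure level was 5.74 in lung, 9.37 in brain and 3.47 in liver. Nppa (-0.09) and Mybpc3 (0.31, adjusted p = 0.0558) did not pass.

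Immune genes rose in all 3 lists. 8 of 9 macrophage and granulocyte genes rose (median 1.07), as did all 9 lymphocyte genes (median 1.21) and all 8 genes of MHC class II antigen presentation (median 1.42). The neutrophil protein genes S100a9 and S100a8 rose 3.66-fold and 3.49-fold, and the leukocyte integrin gene Itgb2 2.37-fold. Ptprc, which encodes the leukocyte surface protein CD45, had 9.04, 9.04 and 8.95 in 70/5/25, against 7.14, 7.33 and 7.15 in 70/25/5, a rise of 1.81. Cd3e, a T cell receptor subunit, rose by 1.74 and the chemokine gene Ccl5 by 1.52. Among class II genes RT1-Bb rose by 1.90, RT1-Ba by 1.67 and the invariant chain gene Cd74 by 1.43. Cd14, the endotoxin co-receptor, did not pass (0.16, adjusted p = 0.463), and was higher in pure liver (10.36) than in pure lung (8.51).

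**Figure D2:**
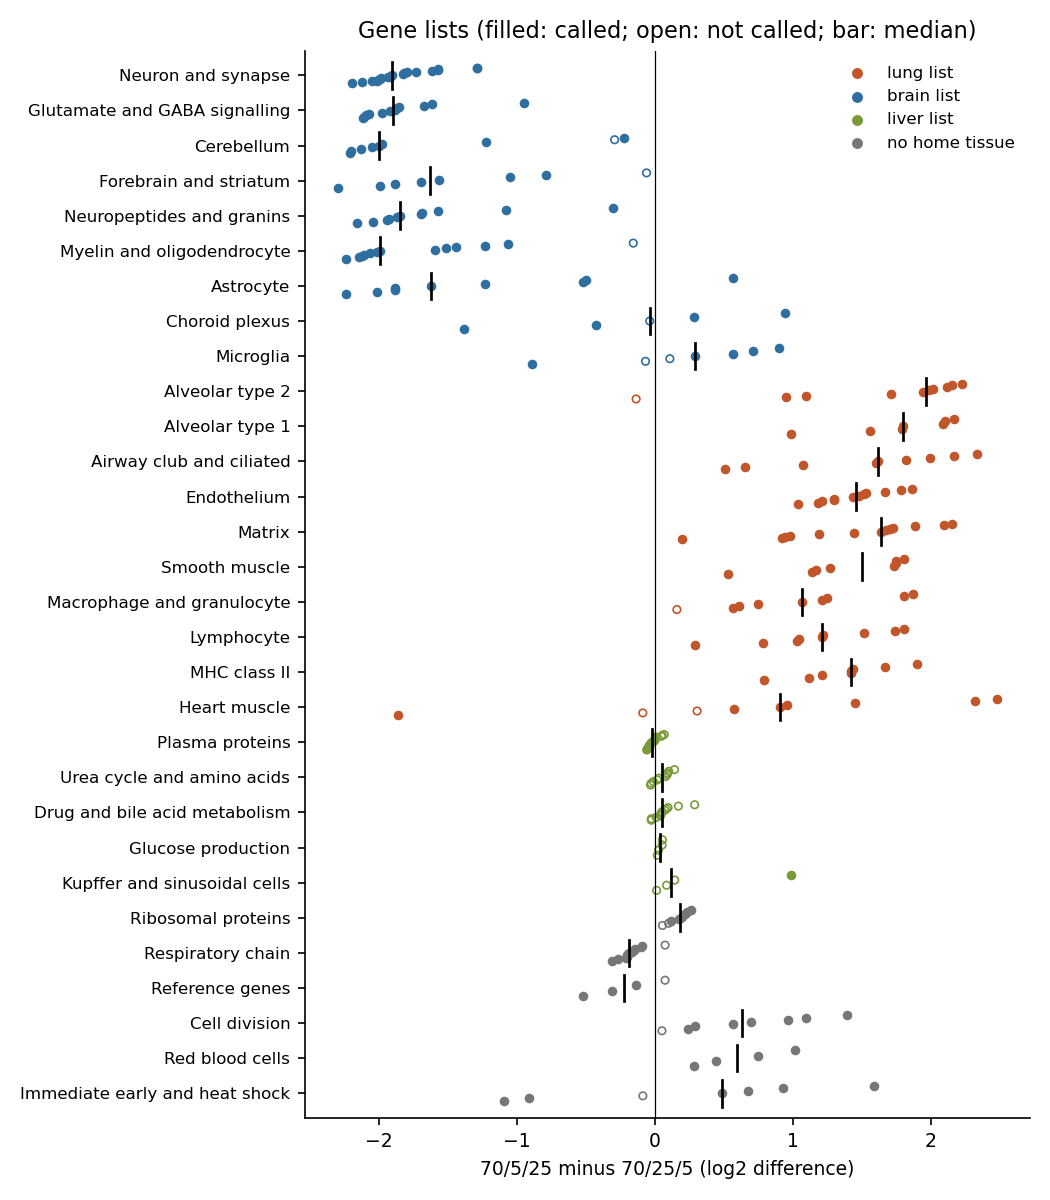
Log2 difference, 70/5/25 minus 70/25/5, of each measured member of the 30 gene lists, 1 probe set per gene. Filled points passed an adjusted p under 0.05, open points did not, and bars mark medians. Brain lists other than microglia and choroid plexus lie to the left except Fgfr3, lung lists to the right except Etv5, Nppa and Ryr2, and the liver lists near 0 except Lyve1 at 0.98.

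Hepatocyte genes, whose tissue had the same labelled share in both mixtures, were not called. The liver shares estimated below were 63.99% in 70/5/25 and 61.3% in 70/25/5. None of the 19 plasma protein genes, 10 urea cycle and amino acid breakdown genes, 12 genes of drug and bile acid metabolism or 4 genes of glucose production passed limma's test. At an unadjusted p under 0.05, 2 of these 45 genes were higher in 70/5/25 and 0 were lower. Their differences ran from -0.06 to 0.29, with a median of 0.02. Alb, the gene of serum albumin, averaged 14.41 ± 0.02 in 70/5/25 and 14.36 ± 0.02 in 70/25/5 (SD, n = 3 each). Both means lie above the pure liver level of Alb given above, although the labelled liver share was 70%. Whether the array still followed the amount of Alb at this level was not tested. Cyp2c11 had the largest difference of the 45, 0.29 (adjusted p = 0.0537). Of 4 genes of Kupffer and sinusoidal cells 1 rose, beside 31.4% of all genes. Lyve1, a hyaluronan receptor of sinusoids and lymphatic vessels, had 9.88, 9.93 and 9.84 in 70/5/25, against 8.91, 8.93 and 8.86 in 70/25/5, a difference of 0.98 (adjusted p = 2.06e-16). It was higher in pure lung (10.76) than in pure liver (9.45). The Kupffer cell genes Clec4f (0.09) and Cd5l (0.14) and the sinusoidal gene Stab2 (0.01) did not pass.

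Probe sets enriched in pure liver were at least 2-fold above both other tissues at adjusted p under 0.05. Of these 2259, 500 were higher in 70/5/25 and 20 were lower. Those shares, 22.1% and 0.885%, stand beside 25.4% and 21.4% of all probe sets. The 500 rises were small, with a median of 0.24, and none reached 2-fold. Of the 500, 470 (94%) were higher in pure lung than in pure brain, beside 60.9% of all 2259. All 20 that were lower were higher in pure brain. Tfec rose by 0.64, with 5.96, 6.16 and 6.11 in 70/5/25, against 5.74, 5.20 and 5.37 in 70/25/5, and Dmbt1 and Dnase2b rose by 0.57 and 0.56. Elovl2, a fatty acid elongase gene, differed by -0.29, and averaged 3.18 in pure lung, 8.63 in pure brain and 9.64 in pure liver. St3gal3 (-0.35) lost its call without replicate 3 of 70/25/5 (adjusted p = 0.0917), and Lgr4 (-0.26) without replicate 2 of 70/5/25 (adjusted p = 0.246). The count of 500 was 936 after median centring and 0 after the shift by hybridisation controls, and the count of 20 was 10 without replicate 1 of 70/25/5 and 13 without its replicate 2.

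Genes of general cell functions shifted by small amounts in opposite directions. Of 8 ribosomal protein genes 6 rose and 0 fell, with a median of 0.18, beside 31.4% and 23% of all genes. The ribosomal stalk gene Rplp0 averaged 11.82 in 70/5/25 and 11.55 in 70/25/5, a difference of 0.26 (adjusted p = 1.03e-05), and Rpl5 and Rpl13a rose by 0.24 and 0.22. Of 13 respiratory chain genes 11 fell and 0 rose, with a median of -0.19, beside 23% and 31.4% of all genes. Ndufs1, of complex I, had 9.53, 9.50 and 9.43 in 70/5/25, against 9.84, 9.81 and 9.75 in 70/25/5, and Cox6a1 and Uqcrc2 differed by -0.27 and -0.21. These shifts are 1.24-fold or less among the genes named, and after median centring 7 respiratory chain genes still fell. After the shift by hybridisation controls no gene of either list passed.

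Genes often used as references were not constant. Of 4 measured, 3 fell, beside 23% of all genes: Ywhaz by 0.52, the glycolytic gene Pgk1 by 0.31 and Hprt1 by 0.14. The call of Hprt1 was lost without replicate 2 of 70/5/25 (adjusted p = 0.0876) or replicate 2 of 70/25/5 (adjusted p = 0.0611) and after median centring. Tbp did not pass (0.07, adjusted p = 0.446). The control probe sets for rat beta-actin and GAPDH, which lie outside the tested set, moved apart. The 3 for beta-actin were higher in 70/5/25 by 0.36, 0.37 and 0.38, and the 3 for GAPDH were lower, at -0.36, -0.37 and -0.40. Their adjusted p-values were at most 1.18e-07 in a separate limma fit over all 31099 probe sets, controls included.

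Of 8 cell division genes 7 rose and 0 fell, with a median of 0.63, beside 31.4% and 23% of all genes. The mitotic kinase gene Aurkb had 5.99, 6.14 and 6.02 in 70/5/25, against 4.50, 4.69 and 4.79 in 70/25/5, a 2.62-fold rise. Cdk1 rose by 1.09 and the proliferation marker gene Mki67 by 0.96, with Mki67 at 3.00 to 3.25 and Cdk1 at a mean of 3.67 in 70/25/5, within the range of the bacterial controls. After background subtraction 4 of the 8 passed, and among probe sets that were not dim 3 did. All 4 red cell genes rose, beside 31.4% of all genes. Ahsp rose by 1.02, the heme synthesis gene Alas2 by 0.75 and the globin gene Hbb by 0.45. The pure tissues differed in Hbb too, at 13.59 in lung, 11.37 in brain and 12.25 in liver. The 7 immediate early and heat shock genes had no single direction, with 4 higher and 2 lower, beside 31.4% and 23% of all genes. The small heat shock gene Hspb1 rose by 1.59, Ier2 by 0.93 and Jun by 0.67, whereas Egr1 differed by -1.09 and Fos by -0.91. Egr1 averaged 7.63 in lung and 10.00 in brain, and Fos 7.62 in lung and 9.02 in brain.

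Over all probe sets 25.4% were higher and 21.4% lower. Lung-enriched and brain-enriched probe sets were at least 2-fold above both other pure tissues at adjusted p under 0.05. Their pure difference between lung and brain thus already had the direction of the exchange. Of 2777 lung-enriched probe sets 2700 were higher and 1 was lower, with a median difference of 0.91 (1.87-fold). Of 3571 brain-enriched probe sets 3518 were lower and 0 were higher, with a median of -1.07 (2.09-fold lower). Probe sets high in both liver and lung rose in 1001 of 1050 cases, with a median of 0.47, and those high in both liver and brain fell in 305 of 361 cases, with a median of -0.38. Of 1331 high in both lung and brain, 160 rose (12%) and 569 fell (42.7%), with a median of -0.15. The lysosomal gene Cd68 was among the first kind, with 8.42, 8.46 and 8.53 in 70/5/25, against 7.42, 7.37 and 7.42 in 70/25/5 (2.09-fold higher). Myl11 and Limd1 of the same kind rose by 1.20 and 1.05. Sez6, a gene of neuronal dendrites, led the second kind, at -1.01, followed by Cnpy1 at -0.98 and Shf at -0.96.

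The change was smaller in probe sets that were less far above liver. Lung-enriched probe sets under 4-fold above liver had a median difference of 0.65, those 4-fold to 16-fold above 1.16, those 16-fold to 64-fold above 1.87, and the 46 over 64-fold above 2.06. The brain-enriched steps were -0.62, -1.19, -1.87 and -1.97. All 46 and 188 probe sets of the last steps were called, beside 46.8% of all probe sets. These medians stayed short of the 2.32 of the labelled shares. The predictions described next had medians of 0.46, 0.88, 1.57 and 2.075 for the lung steps. For the brain steps they were -0.43, -0.87, -1.61 and -2.07. The observed changes were thus larger than predicted except in the last steps, where they were slightly smaller.

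A predicted difference was computed for each probe set from the pure tissues, as the log2 of the share-weighted sum of their linear levels in 70/5/25 minus that in 70/25/5. Observed and predicted differences had a Pearson correlation of 0.963 across the probe sets, which share the same arrays and are not independent. Of all probe sets 98.8% lay within 1.5-fold of their prediction. Of the 31042, however, 19693 were unclassed, with a median predicted difference of only 0.005. Observed changes were larger than predicted on the whole, with medians of 0.91 observed and 0.63 predicted for lung-enriched and -1.07 observed and -0.77 predicted for brain-enriched probe sets. Taking 1.5-fold and adjusted p under 0.05, 364 probe sets departed from prediction (1.17%). In 358 of them the change was larger than predicted and in 6 it was smaller. Of the 3571 brain-enriched probe sets 186 departed downward and 3 upward, and of the 2777 lung-enriched 148 departed upward and 3 downward.

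Cytip, which encodes a leukocyte adhesion regulator, had 6.44, 6.40 and 6.35 in 70/5/25, against 4.72, 4.31 and 4.66 in 70/25/5. Its difference of 1.83 was 0.96 above the predicted 0.87. Aldh1a3, a retinoic acid synthesis gene, exceeded its prediction by 0.91, Tbx5 by 0.91, Igsf6 by 0.88 and the mesothelial gene Msln by 0.86. Among brain genes Tmem229a departed by -0.97 from its prediction, a larger fall, Vstm2a by -0.95 and Drd1 by -0.93. Vstm2a averaged 2.90 in 70/5/25, within the range of the bacterial controls, so its fall and departure are approximate. In contrast, the 2 largest departures of all were in very abundant lung transcripts. Scgb1a1, the club cell secretory protein gene, had 13.43, 13.36 and 13.41 in 70/5/25, against 12.29, 12.33 and 12.38 in 70/25/5, a rise of 1.07 where 2.30 was predicted. Sftpc, the type 2 cell surfactant gene, had 13.25, 13.27 and 13.26 in 70/5/25, against 12.20, 12.14 and 12.15 in 70/25/5, a rise of 1.10 where 2.29 was predicted. Pure lung averaged 14.04 for Scgb1a1 and 13.88 for Sftpc.

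**Figure D3:**
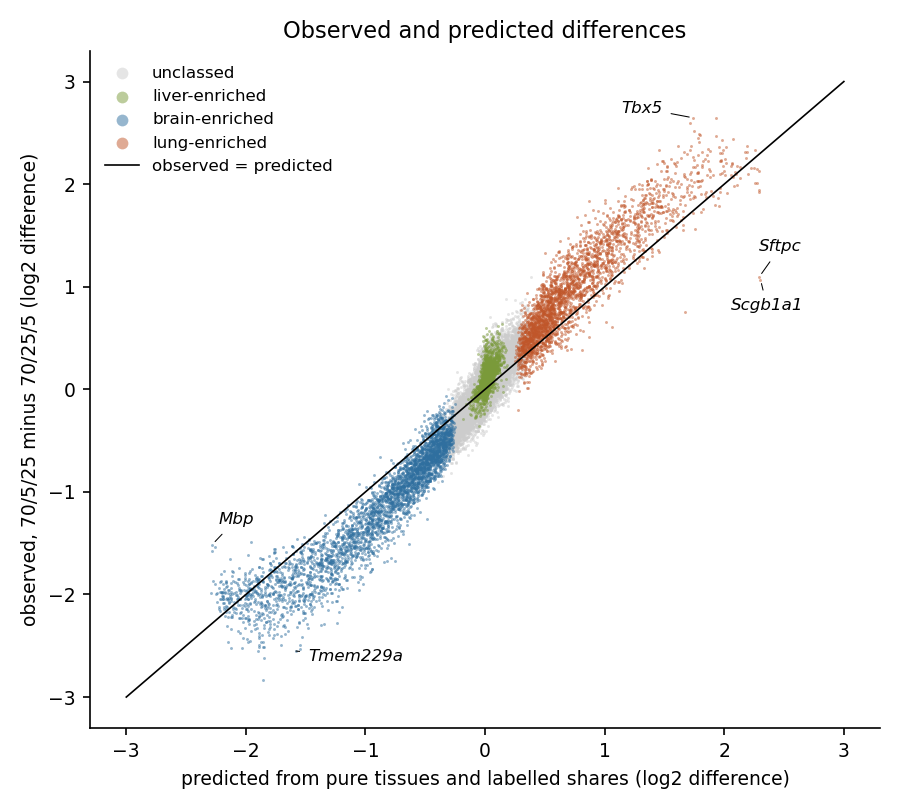
Observed against predicted log2 difference, 70/5/25 minus 70/25/5, for each probe set of 4 classes (those high in 2 tissues are not drawn), with the line of equality. Most brain-enriched and lung-enriched probe sets lie further from 0 than predicted, while Scgb1a1, Sftpc and Mbp lie nearer to 0.

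The other 4 probe sets with a smaller change than predicted were those of Lyz2, the macrophage lysozyme gene (0.75 observed, 1.67 predicted), the myelin gene Mbp (-1.51 observed, -2.28 predicted), the synaptic gene Snap25 (-1.57 observed, -2.28 predicted) and 1 brain-enriched probe set with no gene in the annotation. All 6 lay above 12 in their home tissue. Grouped by that level, lung-enriched probe sets exceeded prediction by a median of 0.25 at levels of 6 to 8 and 0.29 at 8 to 10, but by 0.01 over 12. Brain-enriched probe sets had a median departure of -0.31 and -0.26 at the same levels, a larger fall than predicted, and of 0.08 over 12. Larger and smaller changes than predicted thus lay at different brightness, and what part the array's response played was not tested.

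**Figure D4:**
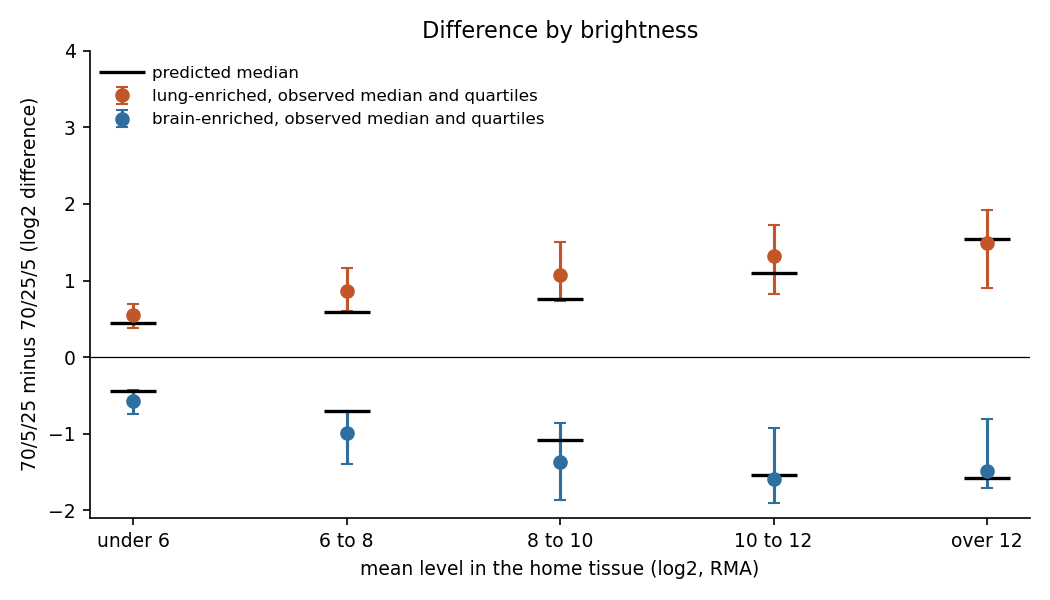
Median log2 difference, 70/5/25 minus 70/25/5, of lung-enriched (above 0) and brain-enriched (below 0) probe sets by their mean level in the home tissue, with bars from the lower to the upper quartile and black dashes at the predicted medians. The observed medians are further from 0 than predicted at levels from 6 to 10 and close to the prediction over 12.

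Shares estimated from the arrays ranked the mixtures as the labels do for lung and brain, with other sizes. The estimate fitted the linear levels of 100 probe sets per tissue by non-negative least squares. Lung was estimated at 28.0%, 28.3% and 28.3% on the 70/5/25 arrays, against 4.85%, 4.88% and 4.96% on the 70/25/5 arrays, beside labels of 25% and 5%. Brain was estimated at 8.0%, 7.94% and 7.54% in 70/5/25, against 33.8%, 33.8% and 33.7% in 70/25/5, beside labels of 5% and 25%. Liver averaged 63.99% ± 0.24 in 70/5/25 and 61.3% ± 0.04 in 70/25/5 (SD, n = 3 each), beside a label of 70% for both. The mixtures differed by 23.3 points of lung, -26.0 points of brain and 2.67 points of liver, where the labels give 20, -20 and 0. For all 3 tissues the arrays of the mixtures did not overlap. The two-sided exact permutation test gave p = 0.1 each (0.1 also after Benjamini-Hochberg adjustment over the 3), the smallest that 3 arrays against 3 allow.

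**Figure D5:**
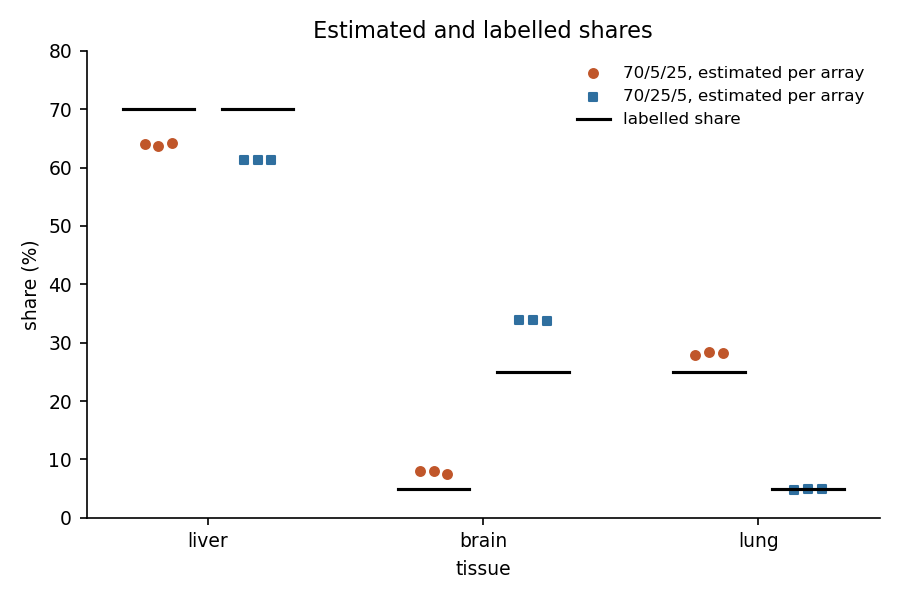
Estimated share (%) of each tissue on each array, with 70/5/25 as circles and 70/25/5 as squares to the right of them, and black lines at the labelled shares. Brain is estimated above its label in both mixtures, lung above its label in 70/5/25 only, and liver below its label in both.

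A second pair of mixtures in the series exchanged 10 points of brain for lung at 55% liver, on 6 other arrays. In 55/20/25 against 55/30/15, 3157 probe sets were higher (10.2%) and 2930 lower (9.44%). The lung-enriched median difference was 0.91 in 70/5/25 against 70/25/5 (0.63 predicted) and 0.40 in 55/20/25 against 55/30/15 (0.29 predicted). The brain-enriched medians were -1.07 (-0.77 predicted) and -0.34 (-0.29 predicted). Of the lung-enriched probe sets 1973 were called higher there and 0 lower, and of the brain-enriched 2400 lower and 0 higher. Tbx5 rose by more than predicted there too, at 1.20 where 0.62 was predicted, and Scgb1a1 by less, at 0.28 where 0.73 was predicted. Of the genes that fell by more than predicted in the 70% pair, some also had values beyond the prediction at 55% liver. They included Tmem229a (-0.63, predicted -0.49), Ildr2 (-0.73, predicted -0.53) and Drd1 (-0.58, predicted -0.45). Other such genes had smaller falls than predicted there, among them Gabra2 (-0.38, predicted -0.52), Nxph1 (-0.34, predicted -0.51), Pax6 (-0.43, predicted -0.50) and Vip (-0.43, predicted -0.47). Both predictions use the same pure arrays. Neither the departures from prediction in the 55% pair nor the difference between the pairs was tested.

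Very few genes moved against the pure tissues. Among genes that differed at least 2-fold between pure lung and pure brain, 2 were called in the opposite direction, both by small amounts. Gmnc, a regulator of multiciliated cells, was lower by 0.20 at levels of 2.83 to 3.11, near the bacterial controls. Aqp9, a liver water channel gene, was higher by 0.15 and averaged 4.61 in lung, 6.11 in brain and 10.41 in liver. Both calls were lost when single arrays were left out, with adjusted p up to 0.0729 for Gmnc and 0.141 for Aqp9. Gmnc was lost without replicate 2 or 3 of 70/5/25 and replicate 1 or 2 of 70/25/5, and Aqp9 without replicate 1 or 2 of either mixture. Probe sets of a gene mostly did not contradict each other: of 1754 genes with at least 2 called probe sets, 105 had calls in both directions. Xist fell by 0.41 in 1 of its 4 probe sets (adjusted p = 3.92e-06), the other 3 differing by -0.07 to -0.12 without passing, and Eif2s3y rose by 2.36 (adjusted p = 4.39e-17), with predictions of -0.37 and 2.02.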

How the data were processed

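Labelled cRNA of liver, brain and lung, pure or mixed, was hybridised to Affymetrix rat arrays, and the authors deposited log2 levels normalized with RMA, per the labels and the submitters' processing notes. No version of RMA is given in those sources. RMA equalises array distributions, which can scale mixtures of unlike tissues unevenly. Of 31099 probe sets 57 controls were left out of the tests. In the platform annotation 20826 of the rest had 1 gene, 436 several and 9780 none. Genes were represented by the probe set with the highest mean over all arrays.

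Groups came from the tissue labels. limma 3.58.1 (R 4.3.3) fitted a mean per group over 42 arrays, with 28 residual degrees of freedom. Benjamini-Hochberg adjustment covered 31042 probe sets. Errors of predictions came from the same fit by the delta method. Named were the 10 largest rises and falls, up to 3 called members of each list each way and those against its home, the 5 largest departures each way, the 3 largest changes of liver-enriched and 2-tissue classes, and genes against the pure difference. Genes that did not pass were named after their values were seen. The members and lists were chosen with earlier results of these data known. Steps were tested on simulated data. Alternatives covered normalization, background (the 5th percentile subtracted), dim probe sets, variance model, arrays, mixing scale and shares. Figures used matplotlib 3.10.9 under Python 3.11.15.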

Additional observations from a re-analysis of the deposited data

How the results depend on the processing

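The 81 brain-list falls and 89 lung-list rises stayed within 1.5 times under every alternative run for them, and all 125 named differences kept their sign or came to 0, but their calls were lost in 51 of 1621 comparisons with an alternative. Arrays shifted by a curve through their hybridisation controls gave 5291 calls (2181 higher, 3110 lower), 0 and 0 liver-enriched calls and 0, 0 and 0 departures (all, larger, smaller). By limma at unadjusted p under 0.05 these last were 15 and 0 liver-enriched and 53 departures, and the median residual SD was 0.30, against 0.12 as deposited. Liver-enriched counts (higher and lower) were 936 and 6 after median centring, and the lower count 11 after quantile normalization, 8 with 1 probe set per gene and 10 to 23 with single arrays left out. Departures (all, larger, smaller) were 707 and 700 after median centring, 663 and 657 after quantile normalization, 1018, 943 and 75 after background subtraction, 189 and 184 with 1 probe set per gene, 2780, 2702 and 78 with mixing on the log2 scale, and 141, 138 and 3 with estimated shares. With 1 probe set per gene and p-values adjusted over these alone, 8017 were called, 4657 higher and 3360 lower, 779 and 922 at 2-fold, with 1653 brain-enriched lower and 1613 lung-enriched higher, because fewer probe sets were tested. The lung, brain and liver share differences were 26.0 and -28.8 (lung, brain) after centring, 22.4, -24.3 and 1.86 after quantile normalization, 20.6 and 5.39 (lung, liver) after the curve, 24.0, -27.5 and 3.42 after background subtraction, 22.7, -25.2 and 2.49 with 50 probe sets per tissue, 23.9, -27.4 and 3.43 with 200, and 23.8, -25.5 and 1.75 with all. The brain difference was -26.2 to -25.8 with single arrays left out. Apart from the smaller number of probe sets, the cause was not tested. No paired analysis was possible because replicate numbers only follow deposit order. The 3 arrays a group and levels near the bacterial controls limit the folds of dim genes.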

Other observations

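Gene families defined by symbol were chosen after their values were seen and are given as descriptions. Over all genes 31.4% were higher and 23% lower, and the shares of some families lie near these. All 5 Gimap genes, small GTPases of lymphocytes, rose at least 2-fold. Of 27 chemokine genes (Ccl and Cxcl) 20 rose and 1 fell. Cxcl3, a neutrophil attractant, averaged 11.18 in 70/5/25 and 9.06 in 70/25/5, and Cxcl16 rose by 1.66, whereas Ccl27 differed by -1.03 and was higher in pure brain (8.14) than in pure lung (4.96). Of 26 integrin genes 18 rose, led by the epithelial Itgb6 at 2.36, and of 51 interleukin and interleukin receptor genes 27 rose, led by Il2rg at 1.92. Of 41 collagen genes 24 rose and 7 fell. Col6a5 rose by 2.24, while Col25a1, a collagen of neurons, differed by -2.15.

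Of 75 potassium channel genes (Kcn) 36 fell and 11 rose. Kcnd2 and Kcnc2 differed by -2.16 and -2.14, and the inward rectifier gene Kcnj15 rose by 1.64. Of 16 GABA-A receptor genes 9 fell and 2 rose, with Gabra5 at -2.25 and Gabrp, a subunit of epithelia, at 0.80. Of 17 protocadherin genes 12 fell, led by Pcdh9 at -2.14. Among 24 Hox genes 9 rose, a share near that of all genes, and 0 fell. The 18 Rgs genes, regulators of G protein signalling, held 7 calls each way. Hoxa5, a regulator of lung development, averaged 8.73 in 70/5/25 and 6.71 in 70/25/5. Of 14 Sox genes, Sox7 and Sox18, which act in endothelium, rose by 2.01 and 1.61, and Sox2 and Sox10 differed by -1.31 and -1.07. The 37 proteasome genes (Psm) also held 7 calls each way. The immunoproteasome genes Psmb9 and Psmb8 rose by 0.47 and 0.36, and Psmc5, a subunit of the regulatory cap, differed by -0.42.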
